A study of Mus musculus with 21 samples.

Results

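Mouse Ba/F3 cells held at 47 °C for 15 min were compared with untreated Ba/F3 cells of the same batch, on 3 arrays per group. These 6 arrays were chosen by their labels alone and are 6 of the 21 arrays of the series. Ba/F3 is an established line of bone marrow origin, described as pro-B, that grows with interleukin 3. The series asked how gene expression in these cells responds to being moved on a digital microfluidic device, where voltages drive droplets over electrodes, and also measured cells given heat shock. Each sample was total RNA of Ba/F3 cells, extracted with a Picopure kit and hybridized to Illumina BeadChips. The 47 °C group, the untreated group and the 42 °C and 52 °C groups used for comparison (3 arrays each, 15 min of heat) make up the 12 arrays of batch B, and no genotype, drug or age label distinguishes them. The labels do not say whether replicates came from separate cultures, nor how long after heating the cells were lysed, so p-values measure the spread between these arrays, which may be partly technical.

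In heated cells, heat shock factor 1 (HSF1) normally binds heat shock elements and turns on chaperone genes such as those of the HSP70 and HSP40 families, whose products refold damaged proteins. Immediate early genes are a separate group. They are switched on within minutes by growth factors, cytokines or stress without new protein synthesis, their messages are short-lived, and many encode transcription factors (Fos, Egr) or phosphatases and RNA-binding proteins that end signalling (Dusp1, Zfp36). Severe heat is also known to disturb RNA splicing, transcription and RNA decay.

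The labelled cell type was checked first. Of 15 markers of Ba/F3 or pro-B cells, 14 had a probe, and 5 were detected on all 3 arrays of both groups (Ptprc, Cd79b, Il3ra, Csf2rb and Csf2rb2). The interleukin 3 receptor chains were among those detected, whereas 8 markers, among them Pax5, Ebf1, Rag1, Igll1, Il7r, Dntt and Kit, were detected on 0 of the 6 arrays. Of markers of other cells, all 5 fibroblast, 3 of 4 epithelial, 5 of 6 T cell and 4 of 6 macrophage genes were detected on 0 of 6 arrays, and the macrophage gene Adgre1 was detected on every array with no called difference (11.51 ± 0.02 at 47 °C and 11.35 ± 0.20 in untreated cells, normalized log2 intensity, SD, n = 3 each, limma adjusted p = 0.721).

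The 47 °C arrays were dimmer as scanned. Their 95th percentiles of intensity were 934.8, 861.6 and 1110.4, against 1255.8, 1376.2 and 1537.2 on the untreated arrays, and they detected 12004 to 12693 probes, against 12841 to 13098. Neither pair of ranges overlapped, and the part of this dimness in the results below was not tested. The values below are quantile normalized, which gives every array the same distribution, so a loss of all transcripts together would not be seen, and fewer cells and less RNA per cell cannot be told apart. Correlations between arrays were 0.977 to 0.985 within the 47 °C group, 0.983 to 0.994 within the untreated group and 0.966 to 0.977 between them. Both groups had 2 arrays on the first beadchip and 1 on the second.

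After 15 min at 47 °C the called genes with the largest falls were Egr2, Fosb, Ccl3 and Dusp1. Of 9544 genes tested, 780 (8.17%) were called at an adjusted p below 0.05 (limma, Benjamini-Hochberg), 420 higher (4.4%) and 360 lower (3.77%). Falls reached further than rises, with 92 called genes lower and 62 higher by over 2-fold. Groups did not overlap in 34.7% of all genes tested, called or not. Scaling the arrays by their medians in place of quantile normalization shifted the median change of all genes to -0.43 (0.03 after quantile normalization) and gave 62 genes higher and 2748 lower, so directions here are relative to the bulk of transcripts. The count rested on few arrays: it was 431, 413 or 235 without 47 °C replicate 1, 2 or 3, and 419, 238 or 220 without untreated replicate 1, 2 or 3. With beadchip as a block it was 993, within the first beadchip alone 59 (16 higher and 43 lower), and within the second, with 1 array against 1, 4 (all lower).

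**Figure D1:**
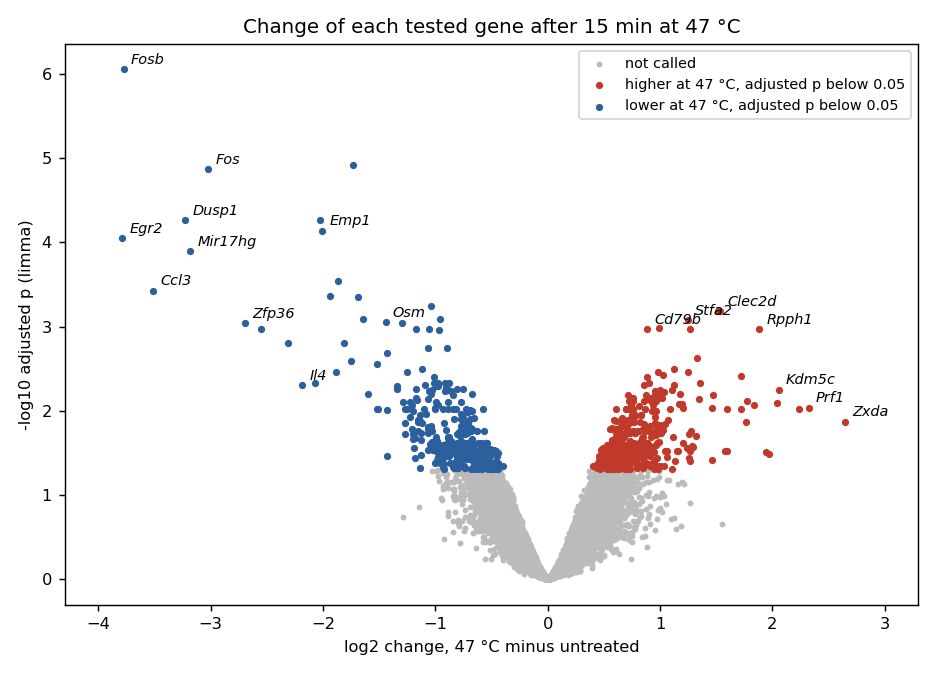
Each point is a tested gene, with its log2 change (47 °C minus untreated, 3 arrays each) on the horizontal axis and the negative log10 of its limma adjusted p on the vertical axis. The genes farthest to the left are Egr2, Fosb and Ccl3, with changes of -3.79, -3.78 and -3.51, and the farthest called rise is Zxda, at 2.64.

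Of the 43 immediate early genes listed, 30 were measured, and 15 of these 30 were called lower, 0 higher and 15 not called, where 3.77% of all genes were lower. The median change of the 30 was -0.71, against 0.03 over all genes. Transcription factors of the AP-1 and EGR families, mitogen-activated protein kinase (MAPK) phosphatases and an RNA-decay factor were among the 15. The count was 23 under median scaling, 11 to 14 when an array was left out, 8 within the first beadchip and 3 within the second.

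The proximal promoters of early genes that fell are shown because activity at such sites is known to be controlled by serum response factor (at the CArG box) and by cyclic AMP response element binding protein. The windows run from 250 bases before to 50 after the annotated start (RefSeq, GRCm38.p6), read 5′ to 3′ on the gene's strand. Capitals mark matches to any of 5 motifs searched on both strands: the heat shock element forms GAANNTTC and TTCNNGAA, the cyclic AMP response element TGACGTCA, the AP-1 site TGANTCA and the CArG box. The Dusp1 window (chr17:26508423-26508722, minus strand) holds 1 TGACGTCA. The Zfp36 window (chr7:28379179-28379478, minus strand) and that of the third of 5 listed Egr2 starts (chr10:67537619-67537918, plus strand) each hold 1 CArG box, and the Fos window (chr12:85473640-85473939, plus strand) holds none of the 5. Of the other Egr2 starts the first holds none, and the second holds a CArG box and a TTCNNGAA. The windows of the fourth and the fifth overlap that of the third and hold the same CArG box. The Fosb window holds none, and 1 of 4 Csrnp1 windows holds 2 TGANTCA. The windows printed are a selection that leaves out Fosb and the first Egr2 start, both without a match.
Dusp1: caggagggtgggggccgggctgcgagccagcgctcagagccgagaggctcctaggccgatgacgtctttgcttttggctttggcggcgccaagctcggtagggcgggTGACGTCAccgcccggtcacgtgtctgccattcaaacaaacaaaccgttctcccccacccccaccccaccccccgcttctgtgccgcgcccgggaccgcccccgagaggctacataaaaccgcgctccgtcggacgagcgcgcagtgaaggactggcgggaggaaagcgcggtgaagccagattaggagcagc
Zfp36: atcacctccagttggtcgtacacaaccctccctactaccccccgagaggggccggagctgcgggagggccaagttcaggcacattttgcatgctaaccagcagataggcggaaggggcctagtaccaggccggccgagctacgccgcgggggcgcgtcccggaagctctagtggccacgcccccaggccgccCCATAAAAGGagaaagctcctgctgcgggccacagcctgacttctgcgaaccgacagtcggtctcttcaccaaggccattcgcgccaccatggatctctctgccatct
Egr2: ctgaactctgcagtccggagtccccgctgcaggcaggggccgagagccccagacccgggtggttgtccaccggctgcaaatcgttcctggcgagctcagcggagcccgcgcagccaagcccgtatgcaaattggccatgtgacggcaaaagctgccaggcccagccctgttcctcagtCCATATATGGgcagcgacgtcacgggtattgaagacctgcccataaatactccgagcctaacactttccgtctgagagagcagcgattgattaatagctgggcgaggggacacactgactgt
Fos: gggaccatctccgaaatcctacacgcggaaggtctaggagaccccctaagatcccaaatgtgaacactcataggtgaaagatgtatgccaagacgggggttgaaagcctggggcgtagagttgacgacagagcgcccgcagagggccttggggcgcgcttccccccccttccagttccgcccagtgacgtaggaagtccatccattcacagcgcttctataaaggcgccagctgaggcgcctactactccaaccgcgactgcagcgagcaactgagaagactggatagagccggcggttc
Of 32851 windows of the same length in the table, 1.79% hold TGACGTCA, 1.63% a CArG box, 7.81% TGANTCA, 7.86% GAANNTTC and 8.52% TTCNNGAA. A match describes letters only, and a window with no match says nothing of sites outside it.

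Fos encodes the partner of Jun in the AP-1 transcription factor. It read 7.70, 7.71 and 8.21 on the 47 °C arrays, against 10.92, 10.85 and 10.92 on the untreated arrays (normalized log2 intensity, as for all levels below). All 3 heated arrays lay over 2 units below every untreated one, a change of -3.02 ± 0.21 (SE), or 8.13-fold lower (limma adjusted p = 1.37e-05). Fosb, a close relative, read 4.61, 5.31 and 5.18 at 47 °C, against 8.95, 8.73 and 8.74 in untreated cells. Its probe was detected on 1 of 3 heated arrays and on all untreated arrays, and its change was -3.78 ± 0.19 (adjusted p = 8.92e-07). The Fosb transcript was thus near background in the heated cells. Fosl2, another member of the family, fell by 1.82 (adjusted p = 0.00155) and Junb fell by 0.55 (adjusted p = 0.0449), the Junb call being lost without any of several arrays (adjusted p up to 0.157).

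Egr2 is a zinc finger transcription factor. Its levels were 5.92, 4.89 and 6.50 at 47 °C, with detection on 2 of the 3 arrays, against 9.57, 9.66 and 9.43 in untreated cells. The groups were far apart, and the change of -3.79 ± 0.33 passed the test (adjusted p = 9e-05). Egr1, its better known relative, did not pass the test (5.23 ± 0.35 at 47 °C and 5.42 ± 0.01 in untreated cells, adjusted p = 0.673). Both groups lay near the lowest detected levels of these arrays (5.17 to 5.42), so a fall like that of Egr2 could not have been measured.

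Dusp1 encodes a nuclear phosphatase that inactivates MAP kinases. It read 7.53, 8.01 and 8.38 at 47 °C, against 11.09, 11.22 and 11.30 in untreated cells, with no overlap. The change was -3.23 ± 0.27, or 9.36-fold lower (adjusted p = 5.48e-05). Further MAPK phosphatase genes, Dusp2 and Dusp4, fell by 1.26 and 1.04 (adjusted p = 0.0095 and 0.00627). Zfp36 encodes tristetraprolin, which binds AU-rich elements and speeds decay of cytokine messages. It stood at 6.63, 6.58 and 6.81 in heated cells, against 9.35, 9.43 and 9.33 in untreated cells, a change of -2.70 (adjusted p = 0.000916). Csrnp1, a nuclear early response protein gene, fell by 2.55 (adjusted p = 0.00107), the kinase gene Plk3 fell by 1.87 (adjusted p = 0.000289) and Ppp1r15a, a phosphatase subunit of the stress response, fell by 1.00 (adjusted p = 0.0095). The others of the 15 were Btg1, Maff and Ier3. Dusp2, Dusp4, Plk3, Ppp1r15a, Fosl2, Junb and these 3 were named after their values were seen, to account for the count.

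Within beadchips the leading falls kept their direction. On the first and the second beadchip, Fos changed by -2.93 and -3.21, Dusp1 by -3.30 and -3.08, and Egr2 by -3.34 and -4.68. The calls for Fos, Fosb, Egr2, Dusp1, Zfp36 and Csrnp1 held with any 1 array left out, the highest adjusted p being 0.00804 for Csrnp1. Under median scaling the same genes were called, with Fos at -3.58 and Dusp1 at -3.78.

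**Figure D2:**
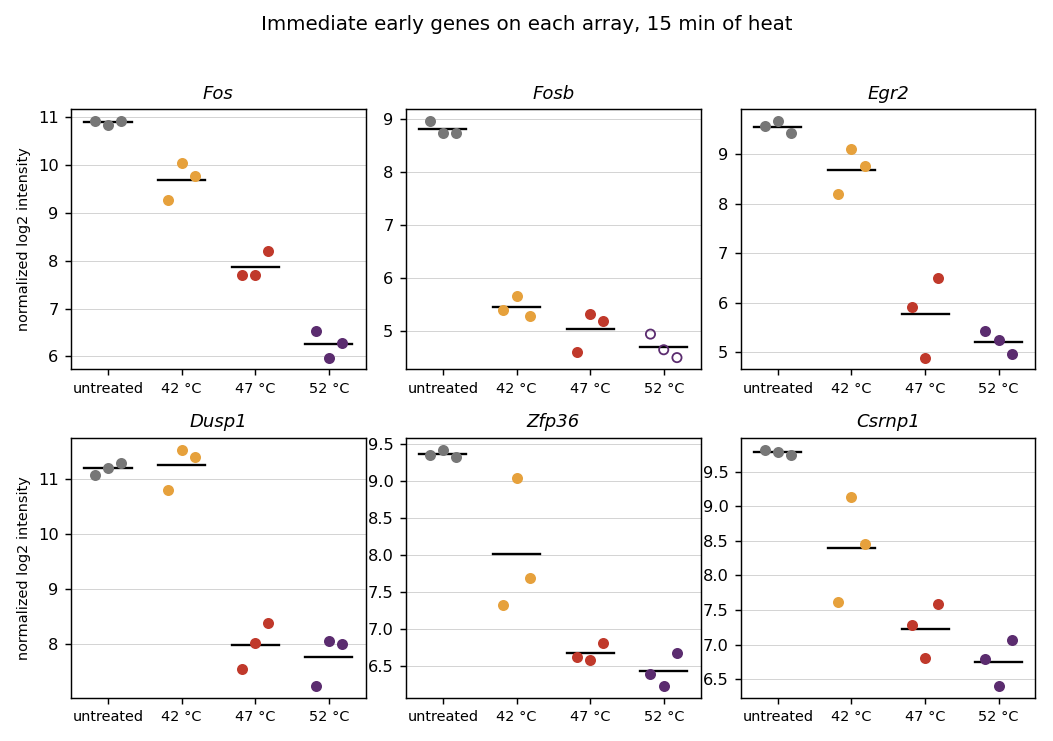
Normalized log2 intensity of 6 immediate early genes on each of 3 arrays per group, in untreated cells and after 15 min at 42, 47 and 52 °C, with group means as bars. In every panel the 3 arrays at 47 °C lie below the 3 untreated arrays, and for Dusp1 the 42 °C arrays lie at the untreated level, with means 11.26 and 11.20.

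The early genes separated the temperatures in different ways. Both heated groups were set against the same untreated arrays, so the direct contrast of 47 °C with 42 °C is given. Dusp1 was 3.28 log2 units lower at 47 °C than at 42 °C (adjusted p = 1.46e-05), where it read 10.81, 11.55 and 11.42. Its change against untreated cells was 0.06 at 42 °C, -3.23 at 47 °C and -3.44 at 52 °C. Egr2 was likewise lower at 47 °C than at 42 °C by 2.92 (adjusted p = 0.000442) and Fos by 1.83 (adjusted p = 0.000449). Fosb was close to the detection limit at both temperatures (5.40, 5.66 and 5.28 at 42 °C, detected on all 3 arrays), so they are not compared for it. Jun, the AP-1 partner of Fos, read 4.47, 5.60 and 4.83 at 47 °C (detected on 1 array), against 8.45, 8.82 and 8.45 at 42 °C, a difference of -3.61 (adjusted p = 8.14e-06), while against untreated cells (4.88, 5.60 and 5.40) the 47 °C arrays overlapped and the change of -0.33 was not called (adjusted p = 0.471). In untreated cells Jun, like Egr1, lay near the lowest detected levels, so a fall from there could not have been measured. Egr1 was lower at 47 °C than at 42 °C by 1.97 (adjusted p = 0.00131). In all, 8 of the 30 early genes were lower and 0 higher at 47 °C than at 42 °C, against 1.34% of all genes lower in that contrast.

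Of 15 measured targets and inhibitors of nuclear factor kappa B (NF-kB) 5 were lower, 0 higher and 10 not called, where 3.77% of all genes were lower. Their median was -0.53, against 0.03 over all genes, and the 5 were Ccl3, Ccl4, Nfkbia, Nfkbiz and Nfkb1 (-0.56). Ccl3, a chemokine gene, read 5.42, 6.36 and 4.67 at 47 °C, detected on 2 of 3 arrays, against 8.79, 9.22 and 8.98 in untreated cells. It changed by -3.51 (adjusted p = 0.000376), and its neighbour in function Ccl4 fell by 2.32 (adjusted p = 0.00155). The inhibitor genes Nfkbia and Nfkbiz, whose products restrain or modify NF-kB, fell by 1.64 (adjusted p = 0.000815) and 1.60 (adjusted p = 0.00627). Nfkbiz was also 1.86 lower at 47 °C than at 42 °C (adjusted p = 0.00222), whereas Nfkbia differed between those temperatures by -0.07 (adjusted p = 0.894).

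Il4, the interleukin 4 gene, stood at 6.57, 7.45 and 6.75 at 47 °C, against 9.04, 9.28 and 9.01 in untreated cells. The groups were 2.18 apart (adjusted p = 0.00497). Osm, which encodes oncostatin M and is a known target of interleukin 3 and STAT5, was bright in both groups, at 11.56, 11.21 and 11.48, against 12.65, 12.97 and 12.97. It fell by 1.44 (adjusted p = 0.00089). Socs3, which encodes a feedback inhibitor of cytokine receptors, changed by -1.43 (adjusted p = 0.0344), a call lost without any single one of the 6 arrays (adjusted p up to 0.114). Of 14 measured interleukin 3 and STAT5 targets, Osm and Socs3 were the 2 called lower, where 3.77% of all genes were lower. None was called higher, and the median was -0.10.

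Mir17hg, the host transcript of the miR-17 to miR-92 cluster, read 5.39, 5.50 and 6.52 at 47 °C, against 8.88, 8.99 and 9.09 in untreated cells. No arrays overlapped, and the change was -3.18 (adjusted p = 0.000128). The probe measures the host RNA and not the mature miRNAs. Noncoding RNAs went both ways: of 9 measured, 3 were lower, Mir17hg among them, and 1 was higher. Of all genes, 3.77% were lower and 4.4% higher. The small nucleolar RNA host gene Snhg12 fell by 1.11 (adjusted p = 0.0095), and Snhg5 changed by -0.63 (adjusted p = 0.0337, up to 0.121 with an array left out).

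Rpph1, the RNA of RNase P that trims tRNA precursors, was the member that rose. It was detected on all 3 arrays at 47 °C, at 6.16, 6.03 and 6.97, and on 0 of 3 untreated arrays, where its probe read 4.39, 4.46 and 4.67. Set against the lowest detected level of each untreated array it was at least 2.29-fold higher (adjusted p of the fit = 0.00108). It read 5.84, 6.03 and 5.84 at 42 °C and 4.97, 5.69 and 5.40 at 52 °C. The difference between 47 °C and 42 °C was 0.48 (adjusted p = 0.336), and that between 47 °C and 52 °C was 1.03 (adjusted p = 0.0351, up to 0.0945 with an array left out).

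Emp1, a gene of an epithelial membrane protein family, went below detection on all 3 heated arrays (4.70, 4.69 and 4.38), against 6.54, 6.74 and 6.52 in untreated cells. It was at least 2.39-fold lower. Magee1, of the MAGE family, was detected on 1 of 3 heated arrays and fell by 1.94. Emp1 averaged 4.68 at 42 °C and 4.60 at 52 °C, detected on 0 of 3 arrays at both, and Magee1 averaged 4.75 and 4.89, detected on 0 and 1 of 3. Both genes passed the detection filter only through the untreated arrays, where they were high, so no p-value is given for them.

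No chaperone gene passed the test at 47 °C. Of 26 listed genes of the HSF1 response 20 were measured, and 0 of these were called by limma, 2 having an unadjusted p below 0.05, with a median of -0.04 and changes between -0.56 and 0.41. Median scaling gave 6 lower with a median of -0.40, beside the shift of all genes of -0.43. With every detected probe in the fit 2 of 31 were lower, which were further probes of Hspa8 (-1.21) and Hspd1 (-1.53). At 42 °C, by contrast, 6 of the 20 were higher than untreated (1.42% of all genes were). At 47 °C 7 of the 20 were lower than at 42 °C, where 1.34% of all genes were. However, 2 of the 20, Hspa1a among them, were detected on 0 of the 6 arrays at 47 °C and in untreated cells. They passed the detection filter only through the other heated arrays, so any call of these 2 against 42 °C follows in part from the filter. Nor could a fall of these 2 from the untreated level have been measured.

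Dnajb1, the HSP40 partner of HSP70, read 10.72, 10.82 and 10.83 at 47 °C, against 11.01, 10.82 and 10.99 in untreated cells and 14.83, 14.98 and 14.84 at 42 °C. The 47 °C and untreated arrays overlapped (change -0.15, adjusted p = 0.426), and the 47 °C level was 4.09 below that at 42 °C (adjusted p = 5.99e-10). Hsph1, an HSP110 nucleotide exchange factor, stood at 10.59, 10.03 and 10.19 at 47 °C, against 9.88, 10.25 and 10.10 in untreated cells, and was 3.35 lower than at 42 °C (adjusted p = 1.11e-06). Its change of 0.19 against untreated cells (adjusted p = 0.571) was -0.32 under median scaling. The inducible HSP70 gene Hspa1a was detected on 0 of 3 arrays at 47 °C and in untreated cells, so no fold is given, and at 42 °C it read 8.40, 8.74 and 8.68. It was at least 9.6-fold lower at 47 °C than at 42 °C. Hspa1a has a near-identical neighbour, Hspa1b, and probes may not tell them apart. Hspa4l, an HSP110-type gene, was lower at 47 °C than at 42 °C by 2.42 (adjusted p = 8.14e-06), and Hsp90aa1, the inducible HSP90, by 0.95 (adjusted p = 0.0348, up to 0.128 with an array left out).

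The Hsph1 promoter is shown for the heat shock element forms near its start (chr5:149636287-149636586, minus strand, first listed start, 250 bases before to 50 after). It holds 2 TTCNNGAA and 1 GAANNTTC, which overlaps one of them. The gene was chosen for this after its values were seen, and neither window of Dnajb1 holds any of the 5 motifs.
Hsph1: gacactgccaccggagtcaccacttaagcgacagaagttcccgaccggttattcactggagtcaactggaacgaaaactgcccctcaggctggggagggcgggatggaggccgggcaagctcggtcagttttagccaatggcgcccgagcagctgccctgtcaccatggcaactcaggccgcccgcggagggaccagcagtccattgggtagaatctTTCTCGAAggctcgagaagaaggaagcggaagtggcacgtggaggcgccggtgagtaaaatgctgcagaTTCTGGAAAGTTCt

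**Figure D3:**
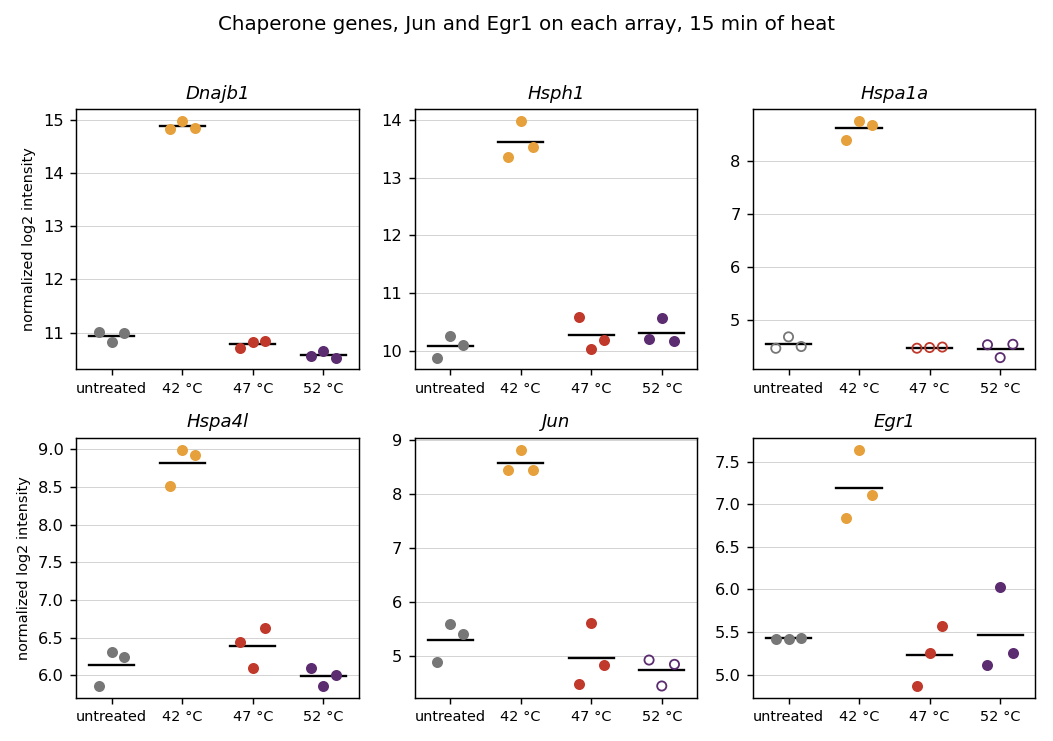
Normalized log2 intensity of 4 chaperone genes, Jun and Egr1 on each array of untreated cells and cells at 42, 47 and 52 °C for 15 min, with group means as bars and open circles for groups with no detected array. Only the 42 °C arrays stand apart in these panels: Dnajb1 averaged 10.94 in untreated cells, 14.88 at 42 °C and 10.79 at 47 °C.

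Among the largest rises at 47 °C were genes whose mean was higher still at 42 °C. Prf1, which encodes the pore-forming protein perforin, read 9.97, 11.26 and 12.32 at 47 °C, against 9.11, 8.71 and 8.75 in untreated cells. The heated arrays spread over more than 2 units yet all lay above the untreated ones, a change of 2.32 ± 0.42 (adjusted p = 0.00915). At 42 °C it read 12.53, 12.03 and 12.37. Erich5, a gene of little known function, changed by 2.23 (adjusted p = 0.0095), and Kdm5c, an X-linked histone demethylase, by 2.05 (adjusted p = 0.00565). The same order of arrays recurred: 47 °C replicate 1 was the lowest heated array and untreated replicate 1 the highest untreated array for Prf1, Erich5, Kdm5c, Zxda, Zbtb2, Rhbdl2, Chka, Hykk and Srr, with Hykk reading 6.67 on both. Zxda, a zinc finger gene, had the largest called rise, 2.64 (adjusted p = 0.0134), and lost its call without untreated replicate 2 or 3 (adjusted p up to 0.058).

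Rhbdl2, an intramembrane protease gene, rose by 1.84 (adjusted p = 0.00865), and Srr, the serine racemase gene, by 1.46 (adjusted p = 0.00915). Chka, choline kinase alpha, changed by 1.72 on the probe used (adjusted p = 0.0095), but its other 2 detected probes changed by -0.73 and -0.42 and 1 of them was called lower. Zbtb2 changed by 1.76 (adjusted p = 0.0136, up to 0.058 with an array left out) and Hykk by 1.60 (adjusted p = 0.0297, up to 0.109). Zxda, Prf1, Erich5 and Kdm5c changed by 3.90, 3.45, 3.26 and 3.00 at 42 °C against the same untreated arrays. The direct differences between 47 °C and 42 °C, -1.26, -1.13, -1.03 and -0.94, did not pass the test (adjusted p between 0.169 and 0.25). Under median scaling all 4 were called lower at 47 °C than at 42 °C (adjusted p = 0.0397, 0.0284, 0.0375 and 0.0241). That scaling also moved the median difference of all genes in this contrast to -0.31, with 47 genes called higher and 381 lower.

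Clec2d and Lpar6 were higher at 47 °C than both in untreated cells and at 42 °C. Clec2d, a C-type lectin that is a ligand of the NK receptor family Klrb1, read 8.65, 8.66 and 7.99 at 47 °C, against 6.75, 6.92 and 7.03 in untreated cells. No arrays overlapped, and the change was 1.54 ± 0.17, or 2.90-fold higher (adjusted p = 0.000658). At 42 °C it was at 6.36, 6.15 and 6.23 and at 52 °C at 9.67, 9.78 and 9.84. It was 2.19 higher at 47 °C than at 42 °C (adjusted p = 1.32e-05) and 1.33 lower than at 52 °C (adjusted p = 0.00438), so its level stood in the order 42 °C, untreated, 47 °C, 52 °C, of which the difference between 42 °C and untreated did not pass the threshold (-0.65, adjusted p = 0.072). Lpar6, a lysophosphatidic acid receptor gene, read 8.41, 8.72 and 8.57 at 47 °C, against 7.09, 7.07 and 7.01 in untreated cells, a rise of 1.52 (adjusted p = 0.000658). It was also higher at 47 °C than at 42 °C, by 1.11 (adjusted p = 0.00374), or by 0.76 under median scaling, which was not called (adjusted p = 0.0676).

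Ltf, Stfa2, Ngp, Bcl2a1d and S100a8 were higher at 47 °C than at 42 °C, and of these Ltf and Stfa2 were also called against untreated cells. Ltf, the lactoferrin gene, read 8.85, 8.70 and 8.84 at 47 °C, against 5.89, 5.71 and 5.72 at 42 °C (difference 3.03, adjusted p = 9.03e-06). It was also above the untreated arrays (7.28, 7.65 and 7.43), by 1.35 (adjusted p = 0.00728). Stfa2, of the stefin A protease inhibitors, was higher at 47 °C than at 42 °C by 2.31 and than in untreated cells by 1.25 (adjusted p = 2.14e-06 and 0.000836). Ngp, a neutrophil granule gene, differed by 3.35 between 47 °C and 42 °C (adjusted p = 2.36e-06) but by 0.41 from untreated cells (adjusted p = 0.251), a value that was -0.11 under median scaling. Bcl2a1d, a survival gene of the BCL2 family with near-identical copies, was 2.62 higher at 47 °C than at 42 °C (adjusted p = 9.2e-05), and S100a8, a calprotectin subunit, 2.49 higher (adjusted p = 0.0121, up to 0.0528 with an array left out). Against untreated cells those 2 changed by 0.74 and 0.50 and were not called (adjusted p = 0.0863 and 0.526). Between 47 °C and 42 °C 260 genes (2.72%) were called in all, 132 higher (1.38%) and 128 lower, and the count was 104 to 236 with an array left out, lowest without 42 °C replicate 3. It was 151, 150 and 146 without 47 °C replicate 2, 47 °C replicate 3 or 42 °C replicate 1.

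**Figure D4:**
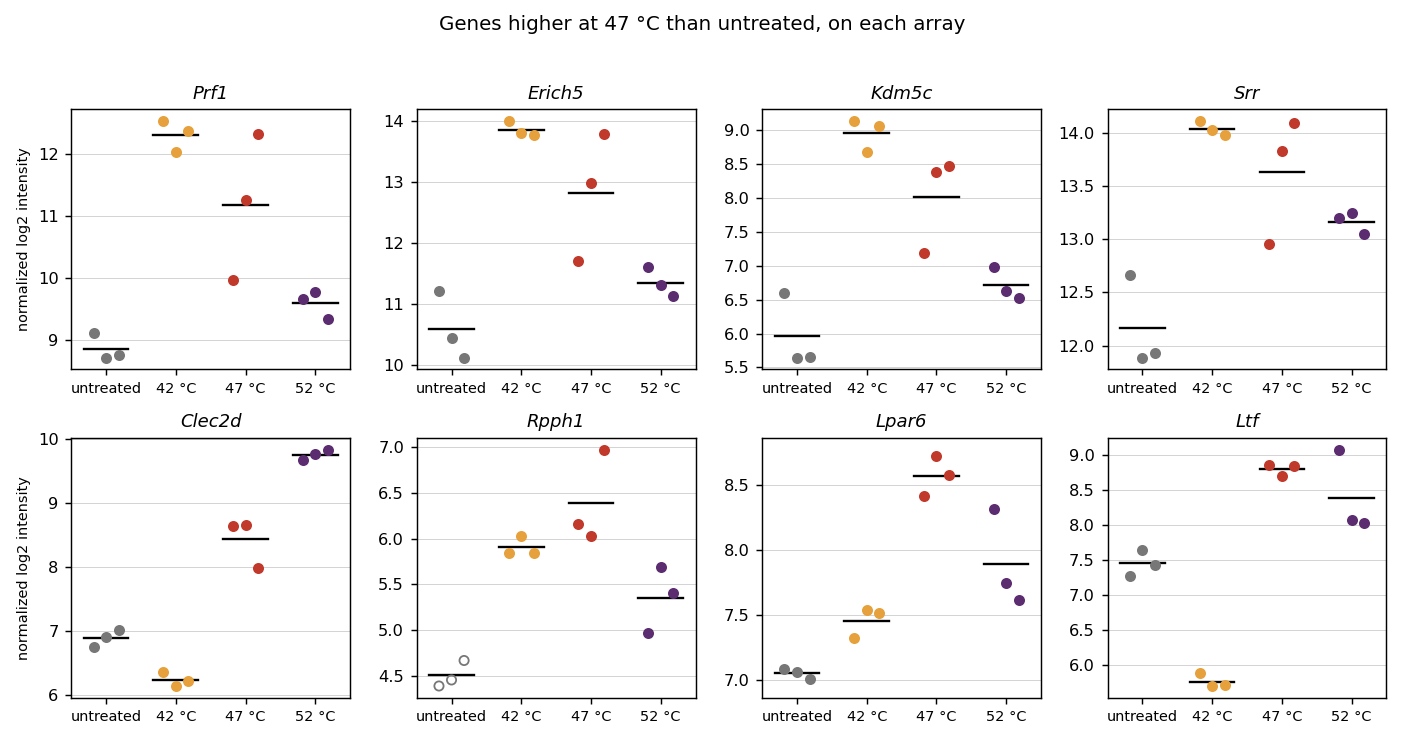
Normalized log2 intensity of 8 genes called higher at 47 °C than in untreated cells, on each of 3 arrays of untreated cells and of cells at 42, 47 and 52 °C, with group means as bars and open circles for groups with no detected array. Prf1, Erich5, Kdm5c and Srr in the upper row are highest at 42 °C, whereas Clec2d and Ltf in the lower row are lowest at 42 °C.

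Further single genes belong to lists of this cell type and of stress. Cd79b, a B cell receptor chain, read 8.35, 8.21 and 8.31 at 47 °C, against 7.46, 7.40 and 7.35 in untreated cells. It rose by 0.88 (adjusted p = 0.00108), by 0.34 under median scaling (adjusted p = 0.224), and its other detected probe changed by -0.12. Of the 5 measured markers of Ba/F3 or pro-B cells, Cd79b was the only one called, where 8.17% of all genes were called. The median change of the 5 markers was -0.26, and 3 of the 5 changed by less than 0. Nupr1, a small stress-induced chromatin protein gene, read 8.58, 8.62 and 8.55, against 7.26, 7.44 and 7.51, and rose by 1.18 (adjusted p = 0.00627).

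Splicing factor transcripts were lower in part. Of 21 SR proteins and CLK kinases 5 were lower and 1 higher, where 3.77% of all genes were lower and 4.4% higher. The median was -0.37, against 0.03 over all genes. The members called lower were Srsf6, Srsf5, Tra2b, Srsf10 and Clk1, and Clk2 was higher, Clk1 and Clk2 being named after their values were seen. Srsf6, which encodes an activator of exon inclusion, read 10.58, 10.31 and 10.52 at 47 °C, against 11.38, 11.30 and 11.43 in untreated cells. It fell by 0.90 (adjusted p = 0.0018), and at 42 °C it was as low, at 10.35, 10.50 and 10.49. Srsf5 changed by -0.59 (adjusted p = 0.0239, up to 0.084 with an array left out), and Tra2b was 2.01-fold lower (adjusted p = 0.0261, up to 0.0909). Of 27 core spliceosome and hnRNP genes 3 were lower and 0 higher (median -0.32), beside the same 3.77% of all genes lower. Hnrnpk, an RNA-binding hnRNP, fell by 1.20 on the probe used (adjusted p = 0.01), whereas its other detected probe changed by 0.01. With an array left out, 1 to 4 of the SR and CLK genes and 1 to 3 of the hnRNP group were lower.

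Of the lists with at least 9 measured members, histone genes had the highest median, 0.37, which turned to -0.11 under median scaling. Of 47 measured 9 were higher and 3 lower after quantile normalization, where 4.4% of all genes were higher and 3.77% lower. After median scaling 1 was higher and 10 lower, where 62 of all 9544 genes were higher and 2748 lower. H4c4, a replication-dependent histone H4 gene, read 6.30, 6.48 and 6.38 at 47 °C, against 5.75, 5.34 and 5.27 in untreated cells, a rise of 0.93 (adjusted p = 0.00764) that was 0.55 under median scaling (adjusted p = 0.0673). The 3 lower members were H3f3a, H3f3b and H2bc4, named after their values were seen, and 0 histone genes were lower with any 1 of the 6 arrays left out. The first 2 encode the replication-independent variant H3.3. Against 42 °C and against 52 °C, 6 members each were higher at 47 °C and 0 lower, where 1.38% and 2.22% of all genes were higher. Histone genes are closely alike in sequence, so a probe may read several, and 1 to 5 were higher with an array left out, against the 9.

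Cholesterol synthesis genes were lower in 4 of 19 cases and higher in 0 (median -0.29), where 3.77% of all genes were lower and the median was 0.03. The count was 2 without 47 °C replicate 2, untreated replicate 2 or untreated replicate 3. Insig1, which restrains the pathway in the endoplasmic reticulum, read 8.10, 7.84 and 7.98 at 47 °C, against 9.26, 8.77 and 8.91 in untreated cells, and fell by 1.01 (adjusted p = 0.00915). Of 17 unfolded protein response genes 1 was higher and 2 lower (median -0.39), where 4.4% of all genes were higher and 3.77% lower. These were Xbp1, the transcription factor of that response, at 0.52 (adjusted p = 0.0315), Dnajb9 at -0.78 (adjusted p = 0.0441) and Sdf2l1 at -0.70. Xbp1 kept its call only without 47 °C replicate 1 (adjusted p up to 0.103 with an array left out), and its change was 0.03 under median scaling. Dnajb9 lost its call without any 1 of the arrays compared (adjusted p up to 0.116). Of 18 integrated stress response genes 1 was higher and 1 lower (median -0.21), beside 4.4% of all genes higher and 3.77% lower. Nupr1 was the higher member, and Phgdh, the first enzyme of serine synthesis, was lower by 1.12 (adjusted p = 0.0139, 0.0547 without 47 °C replicate 3). Bcl2l11, which encodes the pro-death protein BIM, changed by -1.13 (adjusted p = 0.048, up to 0.156 with an array left out). Of the 12 measured BCL2 family genes, Bcl2l11 was the member called lower and Bcl2l2 the member called higher (0.65), beside the same shares of all genes.

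**Figure D5:**
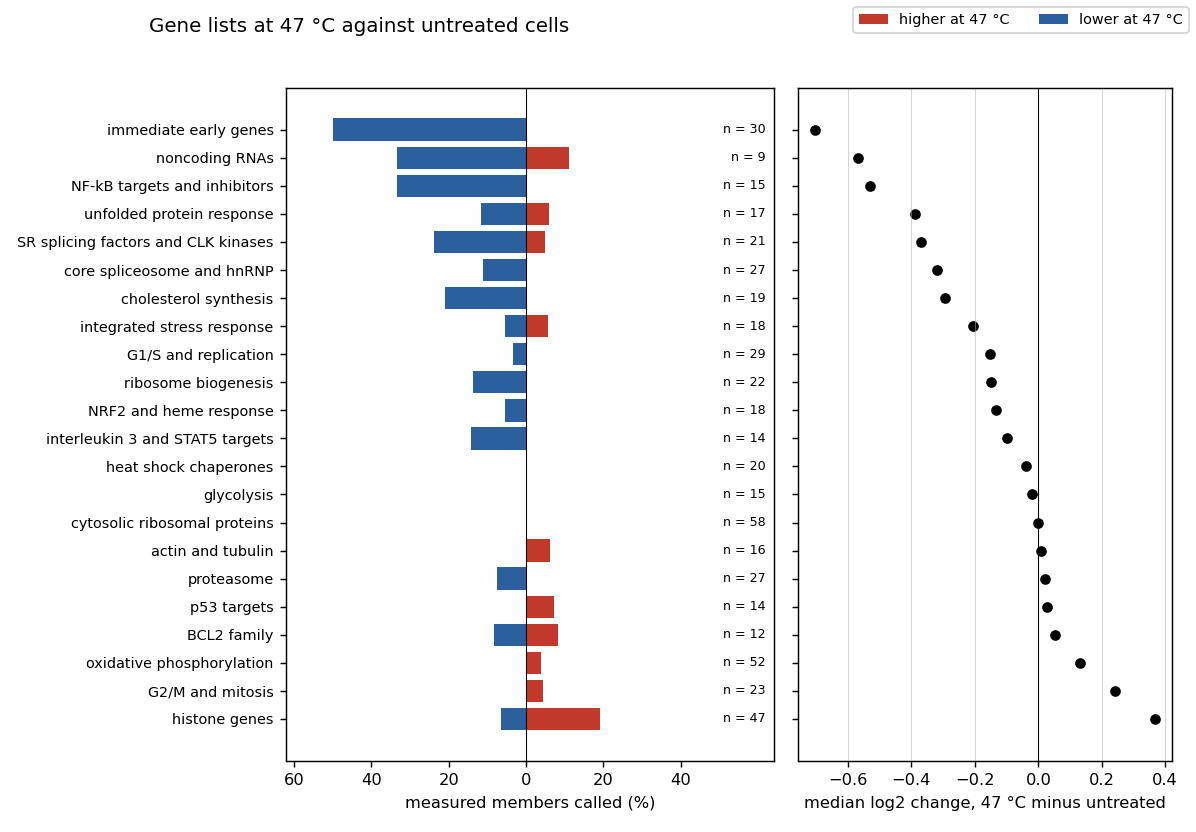
For each gene list with at least 9 measured members, the left panel gives the percentage called higher or lower at 47 °C against untreated cells (n, measured members), and the right panel the median log2 change over the measured members. Immediate early genes have the lowest median, -0.71, and histones the highest, 0.37, which was -0.11 under median scaling.

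Against 52 °C the 47 °C group differed in 411 genes (4.31%), 212 higher (2.22%) and 199 lower (2.09%). The count depended on 52 °C replicate 1, without which it was 1233, and on each of 47 °C replicate 2, 47 °C replicate 3, 52 °C replicate 2 and 52 °C replicate 3, without which it was 81, 41, 48 and 49. Hdc, the histidine decarboxylase of mast cells and basophils, read 11.04, 11.31 and 11.05 at 47 °C, against 10.09, 7.83 and 7.96 at 52 °C, where replicate 1 stood apart. The difference was 2.51 (adjusted p = 0.0165), and the change at 47 °C against untreated cells was not called (-0.07, adjusted p = 0.936). Tpsab1, a mast cell tryptase gene, and Ear6, an eosinophil ribonuclease gene with near-identical copies, were 2.92 and 2.84 higher at 47 °C than at 52 °C (adjusted p = 0.0145 and 0.013). In the other direction Alox5, 5-lipoxygenase, was 1.98 lower at 47 °C than at 52 °C (adjusted p = 0.0432) and Arhgef2, a guanine nucleotide exchange factor gene, 1.70 lower (adjusted p = 0.0168). The calls for these 5 genes were each lost when 1 array was left out, with adjusted p up to 0.135. Of the early genes, 1 of 30 was higher at 47 °C than at 52 °C and 0 lower. It was Fos, by 1.61 (adjusted p = 0.00438), while Dusp1 differed by 0.22 (adjusted p = 0.662) and Egr2 by 0.56 (adjusted p = 0.341).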

How the data were processed

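Total RNA of 12 batch B samples was read on 2 Illumina BeadChips of 45281 probes per array. The authors deposited mean bead intensity and a detection p-value per probe and array, exported without normalization, per the file headers. The authors' deposited log2 values of the same arrays have an unstated normalization, are centred per probe, have a median of 0 on every array, and were used as an alternative only. The number of arrays limits the precision. Here the normexp background correction of limma 3.58.1 (R 4.3.3), with its parameters taken from the detection p-values and an offset of 16, was followed by quantile normalization. Probes with a detection p below 0.01 on at least 3 of the 12 arrays were kept (13773), and the brightest was used per gene (9544 genes). One model over the 4 groups was fitted with limma's lmFit and eBayes, and genes at a Benjamini-Hochberg adjusted p below 0.05 were called. This fit was tested on simulated data. All "adjusted p" values are from limma, across all genes tested. A gene detected on no array of a group is given a bound, computed against the lowest detected level of each array of that group. Probes were named through RefSeq by accession, gene ID or symbol, and 1100 of the genes tested kept the name in the file. Genes named in the text were a selection from the 5 markers, the 12 largest called non-overlapping rises and falls, up to 4 smallest-p members of each of 28 gene lists, and the 5 largest rises and falls against 42 °C and 52 °C, with exceptions stated. The markers, lists and tests were chosen with earlier results of these data known. Alternatives changed the background correction, normalization, detection filter, probes, variance prior, arrays fitted, beadchip and replicate blocks, and the arrays left out. Batch A arrays were not used here.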

Additional observations from a re-analysis of the deposited data

How the results depend on the processing

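The counts of called genes against untreated cells (780), 42 °C (260) and 52 °C (411) changed with the processing. Median scaling gave 2810 (62 higher and 2748 lower), 428 and 110. Leaving out an array gave 220 to 431, 104 to 236 and 41 to 1233. Without a detection filter 479 genes were called against untreated cells and 252 against 52 °C, and fitting the compared arrays alone gave 4 against 52 °C. Beadchip as a block gave 755 against 52 °C. Within the first beadchip the counts were 59, 29 and 0, and within the second 4, 60 and 31. The deposited log2 table gave 1314, 442 and 1053. The cause of these shifts was not tested. Directions turned for genes that were not called in the contrast: under median scaling, Hsph1 (-0.32), Hspa4l (-0.20), Ngp (-0.11) and Tbxas1 (-0.42) against untreated cells. Dusp1 against 52 °C was -0.036 within the first beadchip and -0.049 without 52 °C replicate 1 (-0.049 to 0.44 with an array left out). Within the second beadchip, Egr2 against 52 °C was -0.45, and against untreated cells Jun was 0.72, Hspa1a 0.014 and Hdc 0.16.

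With the replicate number as a block, 647, 196 and 221 genes were called. Deviations of same-numbered 47 °C and untreated arrays correlated at -0.42, -0.397 and 0.151. Over all pairs of a 47 °C and an untreated array, r was 0.036 to 0.506 on the same beadchip and -0.42 to -0.127 on different ones. Only the third same-numbered pair shared a beadchip, so these values cannot show whether the numbers pair the samples.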

Other observations

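Housekeeping gene groups had 0 to 3 called members each at 47 °C against untreated cells, where 4.4% of all genes were higher and 3.77% lower. The share called was 13.6% of ribosome biogenesis genes, 7.41% of proteasome genes and 3.85% of oxidative phosphorylation genes. Medians of these groups moved with the scaling. Of 58 cytosolic ribosomal protein genes 0 were called by limma (5 at an unadjusted p below 0.05), with a median of 0.00. Of 52 oxidative phosphorylation genes 2 were higher, Ndufb10 (0.66), a complex I subunit, and Atp5g2 (0.53), an ATP synthase subunit (0 or 1 higher with an array left out), and the median of 0.13 was -0.31 under median scaling. Of 22 ribosome biogenesis genes 3 were lower: Rrs1 (-0.67), Polr1b (-0.67), an RNA polymerase I subunit, and Taf1d (-0.77). The count was 2 without 47 °C replicate 1 and 0 without any 1 of the other arrays. Of 27 proteasome genes 2 were lower, Psmb2 (-0.81) and Psmd11 (-0.77), whose other detected probe changed by -0.02. The count was 0 without 47 °C replicate 3, untreated replicate 2 or untreated replicate 3, and 1 without any 1 of the others. In the G1/S list 1 of 29 was lower, the helicase subunit Mcm3 (-0.65), and in the G2/M list 1 of 23 was higher, the phosphatase Cdc25c (0.82), where the median of 0.24 was -0.28 under median scaling. Mcm3 kept its call only without 47 °C replicate 1 (adjusted p up to 0.169 with an array left out), and Cdc25c lost it without 47 °C replicate 1 or 3 or untreated replicate 2 or 3 (up to 0.0713) and under median scaling (0.29, adjusted p = 0.281).

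In the interleukin 3 and STAT5 list, Id1 and Id2, inhibitors of helix-loop-helix transcription factors, were higher at 47 °C than at 42 °C, by 1.78 and 1.19. Of the 14 measured members 2 were called higher and 0 lower in that contrast, where 1.38% of all genes were higher. Of the 19 cholesterol synthesis genes measured, 3 were called higher and 0 lower at 47 °C than at 52 °C, where 2.22% of all genes were higher. Among the cholesterol synthesis genes, Mvk and Ebp were higher by 1.22 and 0.56. The number of all genes called in that contrast was 41 to 1233 with an array left out. The genes of both paragraphs outside the naming rule were chosen after their values were seen.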
